A study of Mus musculus with 18 samples.

Results

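Ybx1, Ybx2, Ybx3, Dazl, Boll, Ddx25, Cpeb1, Papolb, Elavl1 and Msi2 encode proteins that bind mRNA, extend its tail or act on its translation in germ cells. They were taken as a named group of 10 genes, of 18194 genes with at least 1 probe set annotated to them alone, and every probe set annotated to 1 of them alone was kept, 30 in all. Msi2 had 8 of these probe sets, Elavl1 6, Boll 4, Ybx1 3, Ybx3, Dazl and Papolb 2 each, and Ybx2, Ddx25 and Cpeb1 1 each. All 30 passed the filter on dim signals. Ybx2, Boll, Ddx25 and Papolb, known for their expression in spermatocytes and spermatids, were set against the other 6, which are expressed earlier in germ cells or in many cell types. Whole testes of mice homozygous for repro9, a missense allele of the transcription factor gene Mybl1 (A-Myb), were compared with wild-type testes on Affymetrix mouse genome expression arrays. There were 5 mutant and 5 wild-type arrays at 17 days post partum (dpp), and 5 mutant and 3 wild-type arrays at 14 dpp. The allele is carried in all cells of the mouse, the genetic background is not given in the labels, and the design text gives at least 3 mice of each genotype without saying which arrays came from separate animals, so the p-values measure the spread between arrays.

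Male germ cells make many mRNAs well before the protein is needed, because transcription stops as the spermatid nucleus condenses. Y-box proteins coat such mRNAs and hold them in store, poly(A) polymerases and CPEB proteins set the length of their tails, and DAZ-family proteins and helicases help bring them to the ribosome. A-Myb is a transcription factor of pachytene spermatocytes, and male mice homozygous for repro9 are infertile through arrest of meiosis. The ages were chosen by the submitters to enrich for early to mid pachytene cells at 14 dpp and for late pachytene to diplotene cells at 17 dpp.

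The promoters of the 10 genes are shown because the mutated gene encodes a DNA-binding protein and because Y-box proteins are named after a promoter motif. RefSeq (GRCm38.p6) gave 14 promoters for the 10 genes, read as the 250 bases before each annotated start. The 3 Msi2 promoters overlap, so letters that they share are counted 3 times among the 14. The MYB letters TAACNG, also with C in the first place and on either strand, were in 0 of the 14, against 43.1% of all 32851 promoters of the same length. The stricter MYB motif CAACTG was also in 0, against 11.1%. When the 50 bases after the start were also searched, 1 of the 14 promoters, of Boll, held the MYB letters. The Y-box core ATTGG, searched on both strands and so read as CCAAT on the other, was in 10 of the 14 promoters, against 33.8% of all promoters. The 3 Msi2 promoters among these hold the same match. By gene the core was in 8 of the 10, a count for which no share over all genes was taken. Those 8 were Ybx2, Boll, Ddx25 and Papolb, and also Ybx1, Dazl, Elavl1 and Msi2; the promoters of Ybx3 and Cpeb1 had no such letters in these windows. This motif was chosen after the array results were known, and a match describes letters only. Below are the promoters with the letters of the 4 spermatocyte genes and, for contrast, that of Dazl, each 5′ to 3′ on the strand of the gene, with the Y-box core in capitals.
Ybx2, chr11:69935649-69935898, plus strand: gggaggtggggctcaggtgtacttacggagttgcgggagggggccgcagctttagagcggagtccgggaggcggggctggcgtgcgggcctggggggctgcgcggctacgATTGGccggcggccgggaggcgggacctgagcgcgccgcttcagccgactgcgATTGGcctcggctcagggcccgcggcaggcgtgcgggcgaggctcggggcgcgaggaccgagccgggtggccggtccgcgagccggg
Boll, chr1:55362729-55362978, minus strand: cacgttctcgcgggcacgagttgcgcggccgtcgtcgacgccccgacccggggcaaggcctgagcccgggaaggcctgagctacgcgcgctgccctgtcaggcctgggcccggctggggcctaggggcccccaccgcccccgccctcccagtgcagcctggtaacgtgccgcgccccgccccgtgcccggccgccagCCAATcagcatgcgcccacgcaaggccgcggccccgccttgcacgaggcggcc
Ddx25, chr9:35558471-35558720, minus strand: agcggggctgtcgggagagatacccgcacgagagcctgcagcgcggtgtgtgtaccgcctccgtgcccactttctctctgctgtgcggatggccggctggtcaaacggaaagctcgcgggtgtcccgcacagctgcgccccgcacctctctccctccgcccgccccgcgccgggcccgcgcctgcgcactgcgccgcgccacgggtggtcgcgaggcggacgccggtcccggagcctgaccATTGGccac
Papolb, chr5:142530077-142530326, minus strand: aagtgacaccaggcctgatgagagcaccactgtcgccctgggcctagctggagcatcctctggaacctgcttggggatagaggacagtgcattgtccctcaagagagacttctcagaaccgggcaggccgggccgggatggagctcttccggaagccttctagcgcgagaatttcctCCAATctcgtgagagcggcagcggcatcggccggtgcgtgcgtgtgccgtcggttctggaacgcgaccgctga
Dazl, chr17:50293621-50293870, minus strand: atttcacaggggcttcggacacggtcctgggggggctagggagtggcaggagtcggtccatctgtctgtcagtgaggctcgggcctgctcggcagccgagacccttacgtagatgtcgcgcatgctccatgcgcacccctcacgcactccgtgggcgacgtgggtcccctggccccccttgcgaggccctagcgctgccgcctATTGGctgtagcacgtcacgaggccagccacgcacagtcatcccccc
In Ybx2 the core began 140 and 87 bases before the annotated start, in Papolb 73, in Boll 53, in Dazl 47 and in Ddx25 9 bases before it. The core stood in promoters of members that fell at 17 dpp and of members that did not pass the test.

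The 18 arrays fell into 3 sets by the ratio of 3′ to 5′ signal of the β-actin control probe sets, which is read as a sign of RNA integrity or labelling. The ratio was 2.31 to 2.92 in set 1, with 7 arrays of all 4 groups, and 1.45 to 1.49 in set 2, with 4 arrays of 14 dpp. It was 103 to 125 in set 3, with 7 arrays of 17 dpp (3 mutant, 4 wild-type). The labels do not name these sets, and results with the set as a block, or within sets, are given beside many of those they change. Mybl1 averaged 167 in mutants and 1831 in wild type at 17 dpp, and 126 in mutants and 637 in wild type at 14 dpp. At both ages every mutant array was below every wild-type array. Among all genes this held for 4.98% at 17 dpp and 4.49% at 14 dpp. The log2 difference of Mybl1 was -3.46 at 17 dpp (limma adjusted p = 5.25e-05). At 14 dpp it was -2.33 and did not pass (limma adjusted p = 0.112). The arrays measure the amount of transcript and not the missense change, so this does not check the genotype. Of 10 pachytene markers, 9 fell in mutants at 17 dpp and 8 at 14 dpp, where 5.83% and 0.32% of all genes fell. Their summed signal was 2037 to 3925 in mutants and 71968 to 156706 in wild type at 17 dpp, and 1593 to 2563 in mutants and 12980 to 19777 in wild type at 14 dpp. None of 10 spermatogonia and 10 Sertoli markers passed the limma test at 17 dpp, with medians of 0.96 and 0.70 on the log2 scale. At an unadjusted p under 0.05 there were 7 and 3, against 3765 of all 15307 genes. With a block for the array set, 4 and 5 of them were higher, against 14.4% of all genes. The summed signal of the spermatogonia markers was 8503 to 19931 in mutants and 3886 to 11984 in wild type, and that of the Sertoli markers 43530.4 to 65473 in mutants and 30898 to 52745 in wild type. Of 4 Leydig, 4 peritubular myoid, 5 macrophage and 4 endothelial markers, 1 rose at 17 dpp, the macrophage receptor gene Csf1r. Among all genes 2.03% rose. With the set block 3 macrophage and 1 peritubular myoid marker were higher, against 14.4% of all genes. In whole testis, fewer cells of a type and less RNA per cell cannot be told apart, and the part of cell composition in the results below was not tested.

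At 17 dpp, 6 of the 10 genes fell in repro9 testes and none rose. Ybx2, Boll, Ddx25 and Papolb all fell, between 5.08-fold and 9.57-fold, and so did Ybx3 (4.79-fold) and Ybx1 (1.93-fold). Dazl, Cpeb1, Elavl1 and Msi2 did not pass the test, though Msi2 was higher in a fit with the array set as a block. Over all 15307 genes tested, 5.83% fell and 2.03% rose (limma on log2 signal, Benjamini-Hochberg adjusted p under 0.05 over 34764 probe sets). The median log2 difference, mutant minus wild type, was -2.49 over the 4 spermatocyte genes and -0.07 over the other 6, against 0.26 over all genes. In each of the 6 genes that fell, every mutant array was below every wild-type array, which held for 4.98% of all genes; Msi2 was the only one of the 10 with every mutant array above every wild-type array, which held for 2.05%.

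**Figure D1:**
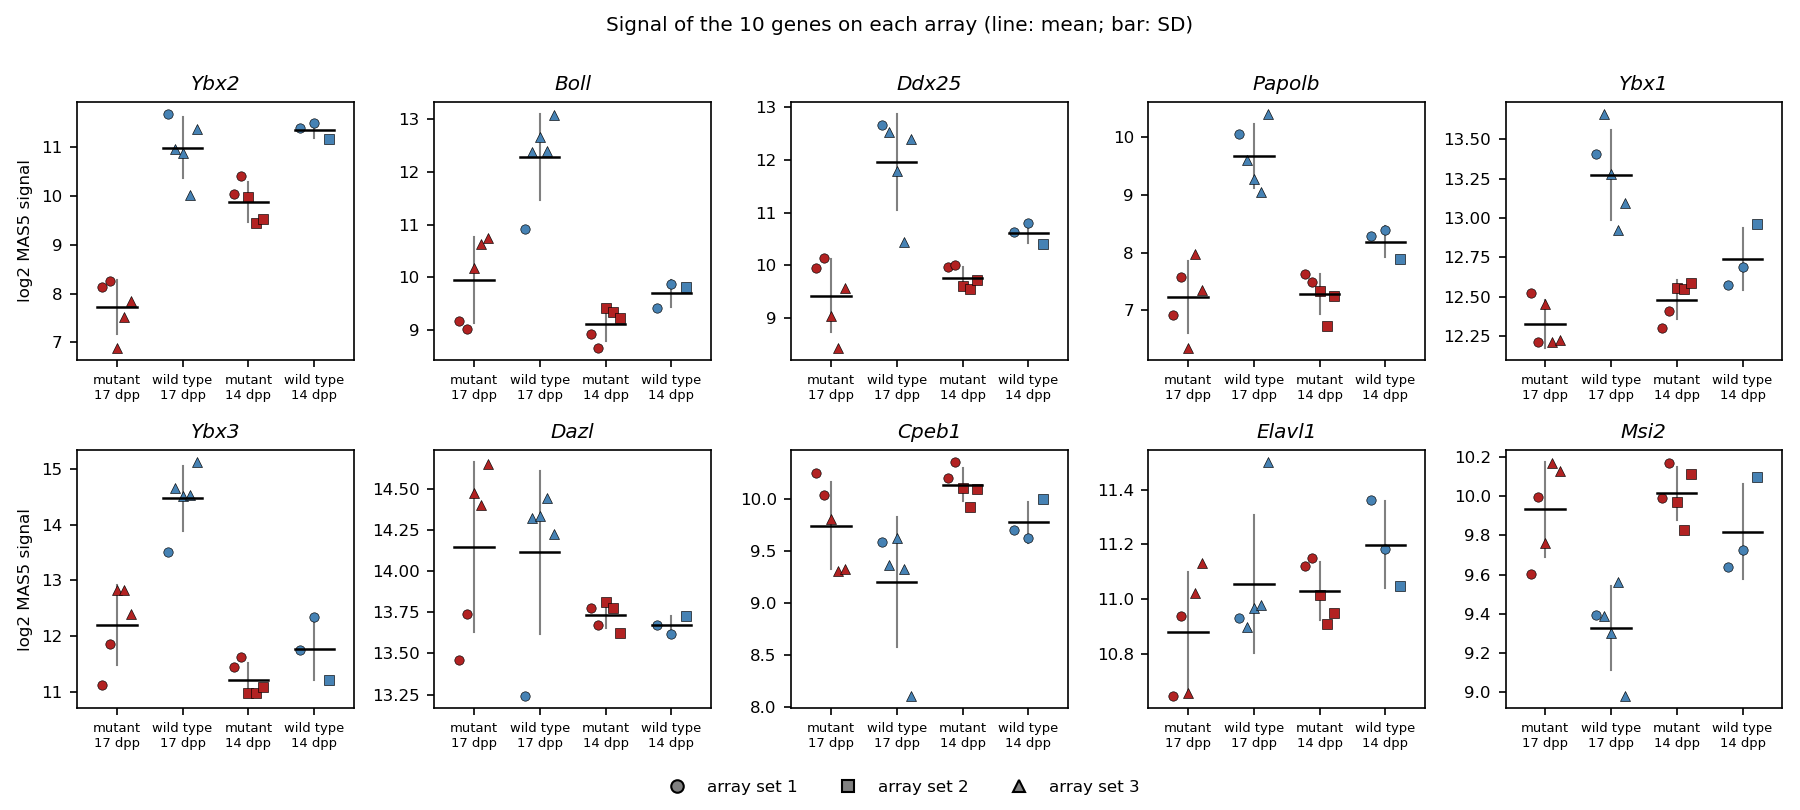
Log2 MAS5 signal of the probe set used for each of the 10 genes, 1 point per array, in mutant and wild-type testes at 17 and 14 dpp; lines are means, bars SD, and marker shapes the 3 array sets. At 17 dpp the mutant points of Ybx2, Boll, Ddx25, Papolb, Ybx3 and Ybx1 all lie below the wild-type points, while those of Dazl, Cpeb1 and Elavl1 overlap.

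Ybx2 encodes the germ cell Y-box protein (MSY2), which binds and stabilises stored mRNAs in spermatocytes, spermatids and oocytes. Its signal at 17 dpp was 283, 306, 118, 183 and 232 in the mutant arrays, against 3294, 2010.2, 1888, 1046 and 2665 in the wild-type arrays. The highest mutant array was well below the lowest wild-type array. The log2 difference was -3.26 ± 0.32 (SE, 5 arrays each; limma adjusted p = 1.96e-06), the largest fall when each gene is read from its brightest probe set. It was -3.48 within set 1 and -3.40 within set 3.

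Ybx3 (MSY4) is a Y-box protein found beside Ybx2 in male germ cells and also expressed in other tissues. Its signal at 17 dpp was 2252, 3714, 7258, 7266 and 5376 in the mutant arrays, against 11706, 25887, 23470.3, 23721 and 35549 in the wild-type arrays. In both genotypes the arrays of set 1 were the lowest, and no mutant array reached a wild-type one. This was a log2 difference of -2.26 ± 0.34 (limma adjusted p = 0.000218). The other Ybx3 probe set also fell, by 2.83 on the log2 scale (limma adjusted p = 4.39e-05), with geometric means of 528 in mutants and 3745 in wild type.

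Ybx1 encodes the general Y-box protein, which packages mRNA and affects its translation in most cells. Its brightest probe set read 5889, 4751, 5615, 4757 and 4790.1 in mutants at 17 dpp, against 10841, 12939.6, 9949, 7758 and 8743 in wild type. The groups did not overlap, and the log2 difference was -0.94 ± 0.16 (limma adjusted p = 0.00108). The other 2 Ybx1 probe sets were dim, with geometric means of 144 and 36.8 in mutants against 101 and 40.8 in wild type, and did not pass the test. When the log2 values of the 3 probe sets were averaged, the difference was -0.20 (limma adjusted p = 0.716), so the call for Ybx1 rests on the brightest probe set.

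Boll (Boule) and Dazl encode DAZ-family proteins that bind mRNA 3′ ends and promote translation; Dazl acts from early germ cells on, Boll late in meiosis and in spermatids. Boll read 572, 517, 1152, 1575 and 1725 in mutants at 17 dpp, against 1933, 5327, 6526, 5376 and 8659 in wild type. The mutant arrays of set 3 came close to the wild-type array of set 1, though within each set the genotypes were further apart. The log2 difference was -2.34 ± 0.39 (limma adjusted p = 0.000683), -1.83 within set 1 and -2.12 within set 3.

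The other 3 Boll probe sets did not pass the test, with log2 differences of -0.68, -1.12 and -1.47 (limma adjusted p = 0.281, 0.128 and 0.138). With the array set as a block, those with differences of -0.68 and -1.12 passed and the one with -1.47 did not (limma adjusted p = 0.0034, 0.00136 and 0.0503). Dazl read 11274, 13687, 22784, 21656 and 25701 in mutants at 17 dpp, against 9684, 20464, 20685, 22271 and 19139 in wild type. Its high and low arrays followed the set, with set 1 low in both genotypes, and the genotypes overlapped. The log2 difference of Dazl was 0.03, with a 95% interval of -0.47 to 0.54 (limma adjusted p = 0.963), an interval that does not reach the fall of Boll.

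Ddx25 encodes the testis RNA helicase GRTH, which takes part in export and translation of mRNAs of spermatids. It read 988, 1126, 526.1, 346 and 762 in mutants at 17 dpp, against 6458, 5891, 3569, 1387 and 5370.4 in wild type. The lowest wild-type array was an array of set 3 and still lay above every mutant array. On the log2 scale Ddx25 differed by -2.54 ± 0.38 (limma adjusted p = 0.000225).

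Papolb encodes the testis poly(A) polymerase that lengthens tails in the cytoplasm of spermatogenic cells, and Cpeb1 the protein that recruits such activity to mRNAs with a cytoplasmic polyadenylation element. Papolb read 121, 191, 81.3, 251 and 163 in mutants at 17 dpp, against 1061, 778, 620.4, 530.2 and 1358 in wild type. The value of 81.3 was below the 40th percentile of its array, 84.2. On the log2 scale Papolb differed by -2.45 ± 0.33 (limma adjusted p = 8.18e-05). The other Papolb probe set fell by 3.28 on the log2 scale (limma adjusted p = 5.5e-05), with geometric means of 107 in mutants and 1044 in wild type. Cpeb1 read 1211, 1047, 896, 631 and 639.6 in mutants, against 766, 657, 789, 639.9 and 275 in wild type. These groups overlapped, with a log2 difference of 0.54 and a 95% interval of -0.04 to 1.13 (limma adjusted p = 0.297).

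Elavl1 (HuR), a protein of most cells that stabilises mRNAs with AU-rich elements, read 1605, 1966, 1618, 2082 and 2243 in mutants at 17 dpp, against 1955, 1911, 2006, 2017 and 2896 in wild type. Elavl1 overlapped between genotypes, with a log2 difference of -0.18 and a 95% interval of -0.54 to 0.19 (limma adjusted p = 0.626). Msi2 (Musashi 2), a translational regulator of stem and germ cells, read 779, 1022, 868, 1150.1 and 1121 in mutants, against 672, 670.2, 632, 757 and 504 in wild type. No mutant array of Msi2 was as low as a wild-type array, yet the log2 difference of 0.61 ± 0.19 missed the threshold (limma adjusted p = 0.0784). With the array set as a block it was 0.63 and passed (limma adjusted p = 0.0106), in a fit where 14.4% of all genes rose and 11.4% fell. Msi2 was 0.41 higher within set 1, without passing, and 0.71 higher within set 3 (limma adjusted p = 0.707 and 0.0233). Of the 30 probe sets of the 10 genes, 8 fell and none rose at 17 dpp, against 3.86% and 1.48% of all probe sets; the 8 were 2 each of Ybx3 and Papolb and 1 each of Ybx2, Boll, Ddx25 and Ybx1. With the array set as a block, 11 of the 30 fell and 3 rose, against 8.05% and 10.8% of all probe sets. Those added were 2 of Boll, 1 of Elavl1 (log2 difference -0.64, limma adjusted p = 0.0363) and 3 of Msi2, of which the 2 dimmer were 0.73 and 1.03 higher (limma adjusted p = 0.0131 and 0.0132).

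**Figure D2:**
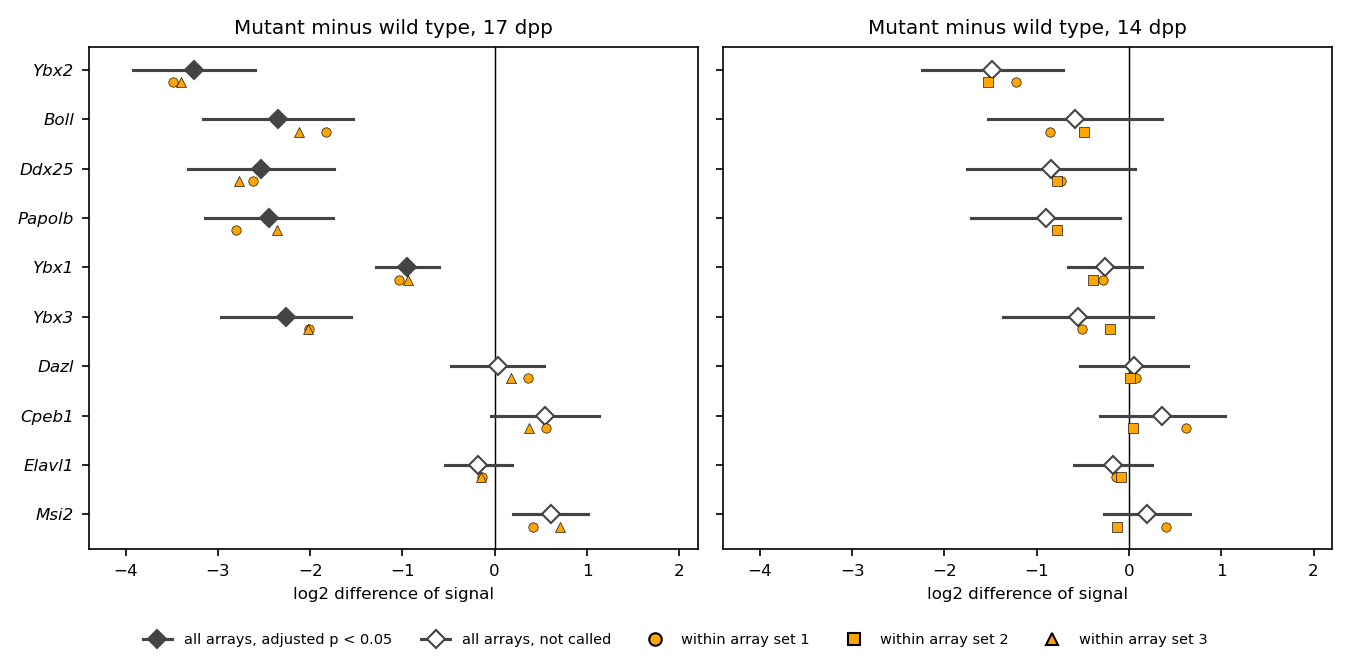
Log2 difference in signal, mutant minus wild type, of each of the 10 genes at 17 dpp and 14 dpp: diamonds with 95% intervals are all arrays (filled where the limma test was passed), and small orange markers are the differences within single array sets. At 17 dpp Ybx2 is lowest at -3.26 and Msi2 highest at 0.61, and at 14 dpp Ybx2 is lowest at -1.48.

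**Figure D3:**
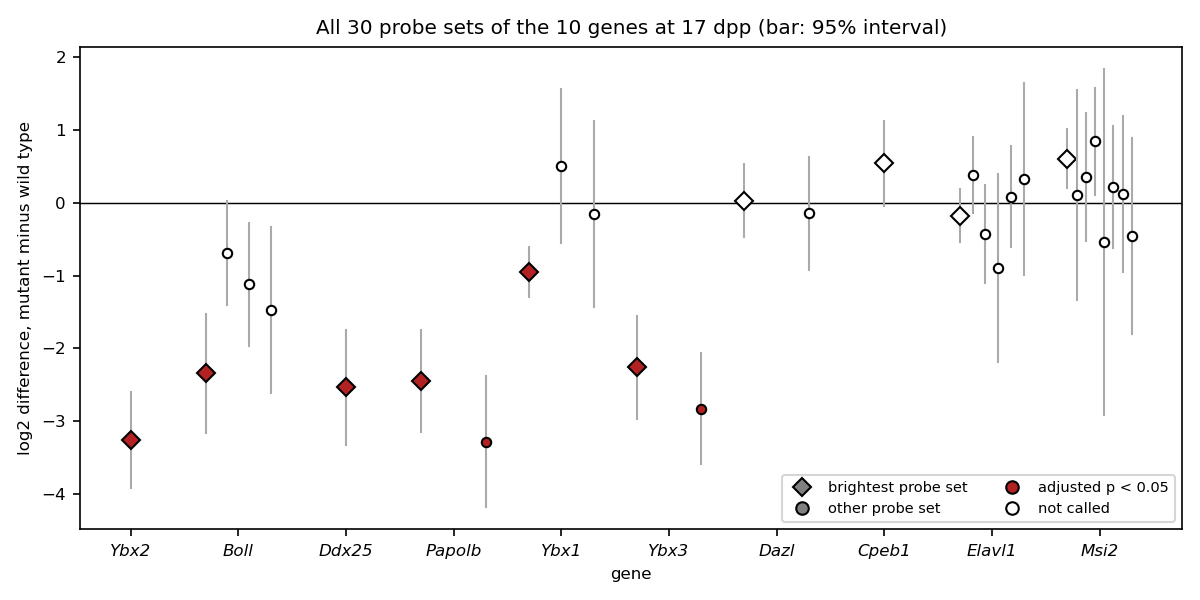
Log2 difference in signal at 17 dpp, mutant minus wild type, with 95% intervals, of all 30 probe sets of the 10 genes; diamonds are the probe sets used for each gene, circles the others, and red points passed the limma test. Both Papolb and both Ybx3 probe sets fell, and the 4 Boll probe sets ranged from -2.34 to -0.68.

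At 14 dpp none of the 10 genes passed the test, where 0.32% of all genes fell and 0% rose (limma adjusted p under 0.05). At an unadjusted p under 0.05, Ybx2 and Papolb were the members that passed, against 367 of all 15307 genes. In Ybx2, Boll, Ddx25 and Papolb every mutant array was nonetheless below every wild-type array, which held for 4.49% of all genes, and none of the 10 had every mutant array higher (2.26% of all genes). The other 6 overlapped between genotypes. This split holds for the brightest probe set of each gene: the other Ybx3 probe set had every mutant array lower (log2 difference -0.82), and the other 3 Boll probe sets overlapped. The median log2 difference was -0.87 over the 4 spermatocyte genes and -0.06 over the other 6, against 0.00 over all genes.

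Ybx2 read 1052, 1372, 1009, 696 and 735 in mutants at 14 dpp, against 2713, 2899 and 2316 in wild type. The log2 difference was -1.48 ± 0.37, with a 95% interval of -2.25 to -0.71 (limma adjusted p = 0.213). With the array set as a block it was -1.35 and passed (limma adjusted p = 0.0276), in a fit where 0.581% of all genes fell. Papolb read 198, 179, 161, 106 and 152 in mutants, against 311, 337 and 236 in wild type (log2 difference -0.90 ± 0.38).

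Ddx25 read 999.9, 1025, 779, 754 and 849 in mutants at 14 dpp, against 1599, 1786 and 1357 in wild type (log2 difference -0.85 ± 0.44). Boll read 481, 402, 678, 649 and 597 in mutants, against 677.8, 935 and 895 in wild type (log2 difference -0.59 ± 0.45). The highest mutant array of Boll and its lowest wild-type array were almost level. For the other 6 genes the log2 differences at 14 dpp were -0.55 for Ybx3, -0.26 for Ybx1, -0.17 for Elavl1, 0.06 for Dazl, 0.20 for Msi2 and 0.36 for Cpeb1, and none passed (limma adjusted p = 1 each).

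The test of whether the genotype difference changed between the ages called none of the 10 genes, and 0.359% of all genes fell more at 17 dpp (limma interaction term). The difference was more negative at 17 dpp by 1.78 log2 units for Ybx2, 1.76 for Boll, 1.71 for Ybx3, 1.69 for Ddx25, 1.54 for Papolb and 0.69 for Ybx1. Each of these 6 had an unadjusted p under 0.05, against 1173 of all 15307 genes. The limma adjusted p was 0.217 for Ybx2 and 0.331 to 0.616 for the rest. With the array set as a block, Ybx2, Boll, Ddx25 and Ybx3 passed (limma adjusted p = 0.007, 0.0138, 0.0443 and 0.00398), in a fit where 1.82% of all genes fell.

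Between the ages, wild-type testes had higher Boll, Ddx25, Papolb and Ybx3 at 17 dpp than at 14 dpp, where 7.06% of all genes were called higher and 18.9% lower. Boll averaged 5001 at 17 dpp and 828 at 14 dpp (log2 difference 2.59 ± 0.45, limma adjusted p = 0.00176). With the set block Boll was 2.82-fold higher (limma adjusted p = 0.00139), against 6.04-fold without it. The other 3 Boll probe sets did not pass and had differences of -0.69, -0.31 and -0.14, and the mean of the 4 did not pass (0.36, limma adjusted p = 0.335). Ybx3 averaged 22677 at 17 dpp and 3509 at 14 dpp (2.69 ± 0.39, limma adjusted p = 0.000459); the difference was 1.53 with the set block and 1.46 within set 1, and passed in both (limma adjusted p = 0.00104 and 0.0318). The smaller differences were 1.49 for Papolb and 1.34 for Ddx25 (limma adjusted p = 0.0161 and 0.037), and 3 of the 4, all but Ddx25, had every 17 dpp array above every 14 dpp array, which held for 7.74% of all genes. The call for Papolb on its brightest probe set was lost without wild-type replicate 1 or 3 of 14 dpp (limma adjusted p = 0.061 and 0.0755). That for Ddx25 was lost without any 1 of the 3 wild-type arrays of 14 dpp or without wild-type replicate 2, 3 or 5 of 17 dpp, with limma adjusted p between 0.0598 and 0.122. Ybx1 was 0.53 higher without passing (limma adjusted p = 0.0526), and 0.70 higher and passing with the set block (limma adjusted p = 0.0322), in a fit where 4.82% of all genes were called higher. With the block Ddx25 was 2.00 higher, against 1.34 without it. Ybx2 did not pass in wild type, where it averaged 2034 at 17 dpp and 2631 at 14 dpp (log2 difference -0.37 ± 0.37, limma adjusted p = 0.49). The other Ybx3 probe set was 1.25 higher (limma adjusted p = 0.0413). The other Papolb probe set was 2.88 higher (limma adjusted p = 0.00172), and 2.95 higher with the set block (limma adjusted p = 0.00618). Elavl1 did not pass at its brightest probe set, but others of its probe sets differed by -1.25, -1.92 and 2.50 (limma adjusted p = 0.0104, 0.0047 and 0.0232). With the set block those Elavl1 probe sets did not pass (limma adjusted p = 0.0893, 0.0853 and 0.277). In that fit the dimmer Dazl probe set differed by -0.90 (limma adjusted p = 0.0189), against 0.06 without the block. A dimmer Msi2 probe set differed by -1.53 (limma adjusted p = 0.00309), against 0.90 without the block. The brightest probe sets of both genes did not pass with it (limma adjusted p = 0.195 and 0.173). Over all probe sets 4.57% were called lower with the block.

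Read from the brightest probe sets, Ybx2 was the only one of the 10 genes called between the ages in mutants. It averaged 213 at 17 dpp and 943 at 14 dpp, a log2 difference of -2.15 ± 0.32 (limma adjusted p = 0.00343), with every 17 dpp array below every 14 dpp array. Over all genes, 1.12% were called lower and 0.647% higher, and 5.85% had every 17 dpp array lower. A dimmer Elavl1 probe set was also called lower (-2.13, limma adjusted p = 0.00407), with 85.2 at 17 dpp and 374 at 14 dpp. Over all probe sets 1.5% were called lower. With the set block this Elavl1 probe set did not pass (-1.25, limma adjusted p = 0.0588). The other spermatocyte genes did not pass in mutants: the difference was 0.84 for Boll, -0.34 for Ddx25 and -0.05 for Papolb (limma adjusted p = 0.16, 0.569 and 0.935). For Boll it was 0.16 with the set block. The other Boll probe sets differed by -1.23, -1.01 and -1.43 without passing (limma adjusted p = 0.0602, 0.119 and 0.107). Ybx3 was 0.98 higher without passing (limma adjusted p = 0.0885), and -0.11 with the array set as a block. Its other probe set was 0.75 lower without passing (limma adjusted p = 0.173). Age and array set are largely the same split, since set 2 holds 14 dpp and set 3 holds 17 dpp arrays alone; within set 1, which spans both ages, Ybx2 in mutants was 2.03 lower on the log2 scale at 17 dpp (limma adjusted p = 0.0176). Within set 1, the brightest probe sets of Boll, Ddx25 and Papolb in wild type were higher by 1.28, 1.93 and 1.71. The other Papolb probe set was 3.75 higher there. Set 1 has 1 wild-type array at 17 dpp, which limits these values.

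Other genes of the same pathways were read from lists that were drawn up with earlier results of these data known. Of 21 genes tested that set poly(A) tails, 3 fell and 1 rose at 17 dpp, against 5.83% and 2.03% of all genes. The median log2 difference was -0.02. With the set block 6 fell and 5 rose, against 11.4% and 14.4% of all genes. The cytoplasmic poly(A)-binding protein gene Pabpc1 averaged 16341 in mutants and 30089 in wild type (log2 difference -0.88), and Cpeb2, a relative of Cpeb1, 854 in mutants and 2971 in wild type (-1.80). Pabpc2, a testis poly(A)-binding protein gene, averaged 29.4 in mutants and 1557 in wild type (-5.73); the mutant mean is below the 40th percentile of every array. Parn, a deadenylase gene, rose by 1.04 on the log2 scale, with 891 in mutants and 434 in wild type.

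Of 42 other genes of RNA-binding proteins of germ cells, 4 fell and 2 rose at 17 dpp, against 5.83% and 2.03% of all genes. With the set block 10 fell and 8 rose, against 11.4% and 14.4% of all genes. Khdrbs3, which encodes a STAR-family RNA-binding protein, averaged 263 in mutants and 1408 in wild type (-2.42). The germ cell DEAD-box helicase genes D1Pas1 and Ddx4 fell by 2.11 and 1.30 on the log2 scale, and Adad1, which encodes a testis double-stranded RNA-binding protein, by 1.37. Elavl3, a relative of Elavl1, rose by 1.21 with 391.7 in mutants and 169.7 in wild type, and Igf2bp1 rose by 1.12.

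Of 22 translation initiation factor genes, 0 fell and 1 rose, Eif2s3y (0.90), against 5.83% and 2.03% of all genes. At an unadjusted p under 0.05, 4 passed, against 3765 of all 15307 genes. With the set block 2 fell and 3 rose, against 11.4% and 14.4% of all genes. Of 14 mRNAs known as clients of the members, 3 fell and none rose, against 5.83% and 2.03% of all genes. They were Pgk2, Acr and Ddx4, with log2 differences of -5.66, -2.66 and -1.30. With the set block these 3 fell and 2 rose, against 11.4% and 14.4% of all genes. The 2 were Prm2 and Stra8 (1.33 and 0.83, limma adjusted p = 0.0349 and 0.00583), named after their values were seen. Pgk2, the testis phosphoglycerate kinase, is also on the list of pachytene markers. Likewise Ddx4 is on that of RNA-binding proteins and Stra8 on that of spermatogonia markers. The synaptonemal complex genes Sycp1 and Sycp3, of which Sycp3 is a known target of Dazl, did not pass, with 11997 and 17704 in mutants against 18551 and 25989 in wild type. At 14 dpp none of these 4 lists had a gene that passed the limma test, where 0.32% of all genes fell. The numbers at an unadjusted p under 0.05 were 1 of 21, 1 of 42, 0 of 22 and 2 of 14, against 367 of all 15307 genes.

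**Figure D4:**
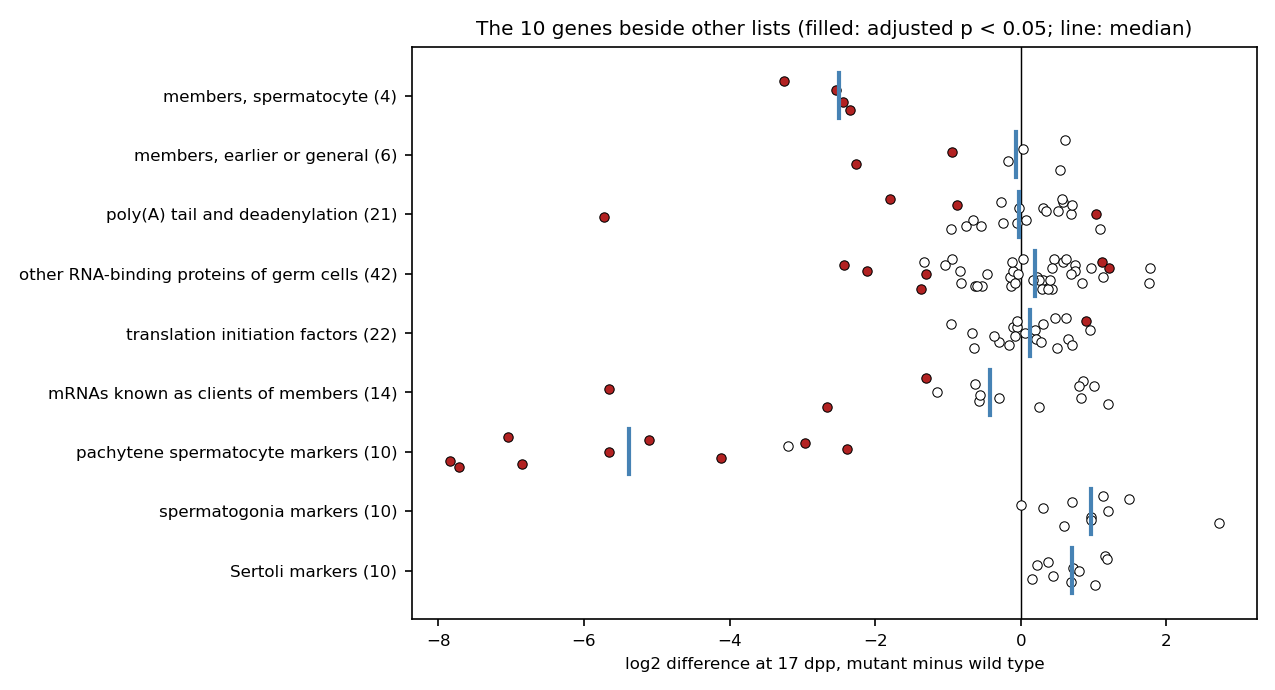
Log2 difference in signal at 17 dpp, mutant minus wild type, for each tested gene of the members, of the 4 lists of related genes and of marker lists; red points passed the limma test and each blue line is the list median. The 4 spermatocyte members lie between -3.26 and -2.34, while the translation initiation factors lie between -0.96 and 0.95.

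The genes whose pattern was most like each spermatocyte gene were ranked by the root mean square difference in log2 signal across the 18 arrays, after each gene was centred on its own mean. For Boll they were AI987944 (0.24), D1Pas1 (0.27) and Supt20 (0.29), and for Ddx25 Spa17, a sperm surface protein gene (0.27), Morn2 (0.27) and Cfap298 (0.30). For Papolb they were Nol4l (0.35), Acyp1 (0.38) and Usp2 (0.38). Ybx2 had no gene as near: the closest were Armt1 (0.67), Cep83os (0.70) and Nek2 (0.73). The 18 arrays share the group and set structure described above, so these ranks are a description of these arrays.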

How the data were processed

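Total RNA of whole testis was labelled and hybridised to Affymetrix mouse genome arrays, 18 in all. The deposited values are linear intensities per probe set, made by the authors with MAS5, per the submitters' processing notes. The number of arrays limits the precision. Arrays were grouped by the genotype and age in the labels. Of 45101 probe sets, 64 controls were left out, and 34764 that exceeded their array's own 40th percentile on at least 3 arrays were tested. Gene names came from the platform annotation of GEO; 34945 probe sets had 1 gene and 932 several, which named no gene.

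Log2 intensities were fitted with limma 3.58.1 (R 4.3.3), 1 mean per group over all 18 arrays, with an intensity trend, and p-values were Benjamini-Hochberg adjusted over 34764 probe sets (threshold 0.05). A gene was read from its brightest tested probe set, 15307 genes in all. Group means are geometric, and differences are mutant minus wild type or 17 minus 14 dpp. The fit was tested on simulated data with independent noise and no array-set effect, so that test does not cover the array sets. Named genes were all 10 members with every probe set, the genes of the 4 lists of related genes that passed at either age (at most 10 per list), and the 3 genes most like each spermatocyte gene; Sycp1, Sycp3, Csf1r and Mybl1 were named besides. Members and lists were chosen with earlier results of these data known. Array sets were defined by β-actin ratios below 1.9 and above 10. Same-numbered arrays at 14 dpp deviated together (r = 0.283 to 0.385), but so did differently numbered arrays of 1 set (0.288 to 0.384), and at 17 dpp the range was -0.227 to 0.777, so a replicate block was an alternative. Other alternatives were the normalization, filter, array weights, set block, single sets and leaving out each array.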

Additional observations from a re-analysis of the deposited data

Results flagged for a closer look

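Arrays far from the rest of their group were looked for in the 10 genes and the 3 groups of 5 arrays, 30 groups in all, by Dixon's ratio of the gap to the whole range on the log2 scale; chance flags about 1 in 20 groups. There were 3 such arrays, all wild-type at 17 dpp. Dazl was low on replicate 1, at 9684 against 19139 on the nearest array (ratio 0.818); this is the only wild-type array of set 1 at 17 dpp. Cpeb1 was low on replicate 5, at 275 against 639.9 on the nearest (ratio 0.801). Elavl1 was high on the same replicate 5, at 2896 against 2017 on the nearest (ratio 0.869). None of these 3 genes passed the genotype test at 17 dpp with or without those arrays.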

How the results depend on the processing

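At 17 dpp the number of the 10 genes called was within 5 to 7 under all 32 alternatives, and the 6 genes called kept their sign in each. At 14 dpp it was 0, but 1 with quantile normalization, with the set block and with arrays of that age alone (Ybx2 each time), 2 without set 3 (Ybx2, Ddx25) and 4 with array weights (Ybx2, Ddx25, Papolb, Ybx3). The interaction called 0, but 1 with the mean of probe sets (Ybx3), 2 with array weights (Boll, Ybx2), 2 without set 3 (Ybx2, Ddx25) and 4 with the block. The wild-type age difference called 4, but 7 with array weights and 1 within set 1 (Ybx3), and 2 to 5 when each array was left out. The mutant age difference called 1, but 2 with median centring (Ybx2, Ybx3) and 4 with array weights, and 1 to 2 when each array was left out. The causes were not tested.

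The sign turned in differences that had not passed the test. Dazl at 14 dpp was -0.060 with median centring and -0.068 with the replicate block; at 17 dpp it was -0.11 with median centring, -0.056 with the mean of probe sets, and -0.19 to 0.20 when each array was left out. Msi2 at 14 dpp was -0.13 within set 2. In wild type between ages, Ybx2 was 0.12 with the set block, 0.32 without set 3 and 0.23 within set 1, and Ybx1 was -0.47 with the mean of probe sets. In mutants between ages, Ddx25 was 0.15 with quantile normalization, 0.029 with the set block, 0.27 without set 3 and 0.059 within set 1. Papolb was 0.36 with quantile normalization, 0.28 with median centring, 0.12 with the mean of probe sets and -0.24 to 0.17 when each array was left out. Ybx3 was -0.11 with the set block and -0.043 within set 1, and Boll -0.019 without set 3 and -0.71 with the mean of probe sets. The replicate block changed no call of a member: it called 0 at 14 dpp (Ybx2 -1.32), 6 at 17 dpp, 0 for the interaction, 4 between ages in wild type and 1 in mutants.

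Over all probe sets, the calls at 17 dpp were 1854 (1341 lower, 513 higher), 6550 with the set block (2799 lower, 3751 higher), 862 with arrays of that age alone and 3947 without wild-type replicate 1. With median centring 7.8% of called probe sets were higher, against 27.7%, and the median of all genes was 0.12, against 0.26. At 14 dpp they were 68, and 24 to 5357. MAS5 signals near the 40th percentile (49.2 to 93.4) are little above background, which limits the dim probe sets of Ybx1, Msi2 and Elavl1. It also limits the dimmest Boll probe set, with a mean of 51.9 in mutants at 17 dpp. In the same mutants Papolb read 81.3 to 251 on its brightest probe set and 75.1 to 167 on the other, so its fold changes carry this limit too.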
